A study of Mus musculus with 45 samples.

Results

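The genes described here were expressed in control mouse embryonic stem cells (mESCs), had a level near that of the control 24 h after removal of the histone methyltransferase EHMT2, and stood at 0.5 of the control level or less after 7 d without it. They were selected on the authors' group means of the time course: the ratio of dTAG to DMSO, with 1 added to both means, was at most 0.5 at 7 d and from 0.8 to 1.25 at 24 h, and the DMSO mean at 7 d was at least 50 normalized counts. Genes whose names start with Rhox, Col, Pcdh, Hist, Platr or Zfp9 were barred by the rule, which removed 0 genes. The rule left 123 of the 55401 genes in the files, and 113 of the 123 were protein-coding. Because the 24 h and 7 d values chose the members, these values are given as a description with no test. Tests and comparisons rest on the washout, sorted and Dppa4 experiments, none of whose values entered the rule.

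The series held 45 RNA-seq libraries in 15 groups of 3. In the first 3 experiments BL6/129 mESCs carried EHMT2 fused at its own locus to the FKBP12(F36V) degron and an mCherry reporter (EHMT2-dTAG), so the DMSO controls carried the tagged allele too, and the cells grew on mouse fibroblast feeders with serum and LIF. In the time course clones E2-17, E2-20 and E2-K71 were given DMSO or the degrader dTAG-13 for 24 h or 7 d. In the washout experiment the same 3 clones had DMSO for 15 d, dTAG for 15 d, or, as the Recovery group, 7 d of dTAG and then 8 d of washout. For sorting, EHMT2-dTAG cells with a MERVL-GFP reporter, numbered as replicates with no clone named, received DMSO or dTAG for 72 h and were then sorted by flow cytometry, GFP-negative cells being called mESC and GFP-positive ones 2-cell-like (2CLC). In the fourth experiment wild-type (WT) J1 mESCs and mESCs with Dppa4 deleted by CRISPR/Cas9 (KO), 3 clones each according to the labels, received 48 h of DMSO or of UNC0638, which blocks the enzymes EHMT1 and EHMT2. WT and KO differ in clone as well as in genotype, and these cannot be told apart.

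EHMT2, also called G9a, works with EHMT1 to place the dimethyl mark on lysine 9 of histone H3 (H3K9me2), a mark of silent chromatin in gene-rich parts of the genome. Loss of such a repressor is best known for letting silent genes switch on, among them genes of the 2-cell embryo. The genes described here moved the other way, and the mark itself was not measured in the files used here. 2-cell-like cells are rare cells in mESC cultures that resemble the embryo at the start of transcription from its own genome, and DPPA4 is a chromatin protein that helps to activate genes of that stage.

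dTAG-13 removes EHMT2 as a protein, and its mRNA had group means of 616 (DMSO) and 609 (dTAG) at 24 h and 622 and 583 at 7 d. Dppa4 had 700.4 to 920.5 normalized counts in the 6 WT libraries and 0 in all 6 KO libraries. The summed mean of 15 genes of the 2-cell stage (the Zscan4, Usp17l and Tcstv genes, Zfp352 and Duxf3) was 477.5 in DMSO and 11089 in dTAG at 7 d, 1337 in sorted DMSO mESC and 225751 in sorted DMSO 2CLC. All 8 mESC markers (Nanog, Pou5f1, Sox2, Klf4, Esrrb, Zfp42, Tfcp2l1 and Tdgf1) were above 0 in every group of means, with sums of 35763 to 83588. The 16 feeder fibroblast markers summed to 13870 in DMSO and 17554 in dTAG at 7 d, with 1 of the 16 at 0 in DMSO and 0 of the 16 in dTAG. The part of feeder cells in the members' ratios was not tested. In such bulk samples fewer cells of a type and less RNA per cell cannot be told apart.

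The 5 promoters printed here are those of the 4 members with the lowest 7 d ratio that have an entry in the RefSeq table within 100 bases of their annotated start, and of Txnip, the member with the highest mean count. Each run is the 250 bases before the transcription start on the gene's strand, 5′ to 3′, from RefSeq on GRCm38.p6, and capitals mark CpG, the dinucleotide that is the main site of DNA methylation. They show how unlike the members' starts were, from 29 CpG at Irf8 to 3 at Trim40.
Irf8 (chr8:120736108-120736357, plus strand): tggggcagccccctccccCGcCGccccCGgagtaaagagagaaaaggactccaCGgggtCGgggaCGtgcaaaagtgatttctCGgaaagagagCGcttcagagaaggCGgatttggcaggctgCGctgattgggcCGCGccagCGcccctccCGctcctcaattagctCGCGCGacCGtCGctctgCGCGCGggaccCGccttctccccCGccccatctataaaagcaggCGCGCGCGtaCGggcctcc
Dmrtb1 (chr4:107684231-107684480, minus strand): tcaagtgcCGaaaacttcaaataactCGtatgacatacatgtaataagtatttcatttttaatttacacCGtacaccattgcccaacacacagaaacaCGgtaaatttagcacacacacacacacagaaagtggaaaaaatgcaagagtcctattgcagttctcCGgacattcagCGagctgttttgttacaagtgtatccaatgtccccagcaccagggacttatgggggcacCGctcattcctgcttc
Trim40 (chr17:36890126-36890375, minus strand): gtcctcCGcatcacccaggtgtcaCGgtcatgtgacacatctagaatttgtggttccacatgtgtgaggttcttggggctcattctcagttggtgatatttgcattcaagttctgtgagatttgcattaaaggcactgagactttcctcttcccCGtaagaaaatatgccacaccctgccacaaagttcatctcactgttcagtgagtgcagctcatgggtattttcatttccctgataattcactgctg
Zc3h6 (chr2:128967152-128967401, plus strand): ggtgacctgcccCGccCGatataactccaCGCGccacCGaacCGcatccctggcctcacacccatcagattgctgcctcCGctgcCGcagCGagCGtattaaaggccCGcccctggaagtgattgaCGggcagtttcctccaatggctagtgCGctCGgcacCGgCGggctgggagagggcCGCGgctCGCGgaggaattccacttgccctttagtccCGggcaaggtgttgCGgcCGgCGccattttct
Txnip (chr3:96557707-96557956, plus strand): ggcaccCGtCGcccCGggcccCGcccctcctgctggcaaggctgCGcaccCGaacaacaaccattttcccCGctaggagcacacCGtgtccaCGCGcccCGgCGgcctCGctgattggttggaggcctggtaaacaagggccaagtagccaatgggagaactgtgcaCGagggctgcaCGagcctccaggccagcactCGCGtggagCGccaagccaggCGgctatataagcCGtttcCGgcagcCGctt
Over the 86 members with a promoter entry, the window held from 0 to 45 CpG with a median of 13, against a median of 17 over 8950 other genes with a DMSO 7 d mean of at least 50. In 65 of the 86 the RefSeq start lay within 100 bases of the annotated gene start, and over these the median was 14, against 17 over 6793 other genes. On either strand, and with overlaps between motifs allowed, CCAAT stood in 44.2% of the members' windows, 37.5% of those other genes' windows and 34.4% of all 27025 windows. The TATA box letters TATAAA stood in 9.3%, 5.51% and 12.9%, the GC box letters GGGCGG in 60.5%, 62.8% and 33.0%, and the E-box letters CACGTG in 4.65%, 8.99% and 6.02%. Over the 65 members with near starts the shares were 43.1% for CCAAT, 10.8% for TATAAA, 66.2% for GGGCGG and 4.62% for CACGTG. Over the 6793 other genes with near starts they were 39.2%, 5.76%, 63.1% and 9.24% in that order. Among the promoters shown, Irf8 had TATAAA starting 31 bases before the start and a CCAAT match at 121 bases, Txnip had 2 CCAAT matches, at 137 and 102 bases, and Dmrtb1 and Zc3h6 had 1 each, at 51 and 111 bases. No single motif of the 4 was in most members apart from the GC box, which was as frequent in other expressed genes.

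At 7 d the members' ratios ran from 0.185 to 0.499 with a median of 0.438, and at 24 h from 0.804 to 1.25 with a median of 0.957. Over all 13741 genes with a DMSO 7 d mean of at least 50, 324 genes (2.36%) were at 0.5 of the control level or less at 7 d, and the rule's 24 h window kept 123 of those 324, while 147 were already under 0.8 at 24 h and 54 were above 1.25. In 98 of 123 members the DMSO mean was higher at 7 d than at 24 h, with a median ratio of 1.16. In 15 members it was at least 1.5 times as high. It was lower at 7 d in 20.3% of members, against 50.6% of 13697 genes with a DMSO 24 h mean of at least 50. A limit on the ratio to the DMSO 7 d mean favours genes in which that mean was high. The excess therefore does not show that the control moved for the members apart from their choice. Against the DMSO mean at 24 h, 65 of the 123 stood at 0.5 or less at 7 d of dTAG. In 123 of 123 the dTAG 7 d mean was below both 24 h means. The members' DMSO mean at 7 d was at most 1.92 times that at 24 h. With a 7 d ratio of at most 0.5, a dTAG 7 d mean below the DMSO 24 h mean was nearly fixed by the rule. Since all the means compared here entered the rule, these counts are no separate check of the lower level at 7 d.

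The lowest ratio was that of Scnn1a (chromosome 6, 125320659 to 125344943), the alpha subunit of the epithelial sodium channel, with means of 125.2 (DMSO) and 112.4 (dTAG) at 24 h and 145.1 and 26 at 7 d. Cacna1h (chromosome 17, 25374285 to 25433783), which encodes a T-type voltage-gated calcium channel, had 202.8 and 212.7 at 24 h and 252.7 and 57 at 7 d. Irf8 (chromosome 8, 120736358 to 120756694), a transcription factor of the interferon response and of myeloid cells, had 207.9 and 195 at 24 h and 185.3 and 40.5 at 7 d. In all 3 the 24 h means lay close together and the dTAG mean at 7 d was the lowest of the 4, in the means that chose them.

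The other members among the 12 lowest were of mixed kinds. Epha10, an Eph receptor, had a 7 d ratio of 0.21, and Fat2, an atypical cadherin, 0.214. Slc7a4 of the amino acid transporter family had 0.269, Dmrtb1, a DM-domain transcription factor of male germ cells, 0.279, and Trim40, a RING-type ubiquitin ligase, 0.283. Zc3h6, a zinc finger protein, had 0.288, Hrc, a calcium-binding protein of the sarcoplasmic reticulum, 0.299, Eno2, the enolase of neurons, 0.3, and Selplg, the ligand of P-selectin on leukocytes, 0.302.

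**Figure D1:**
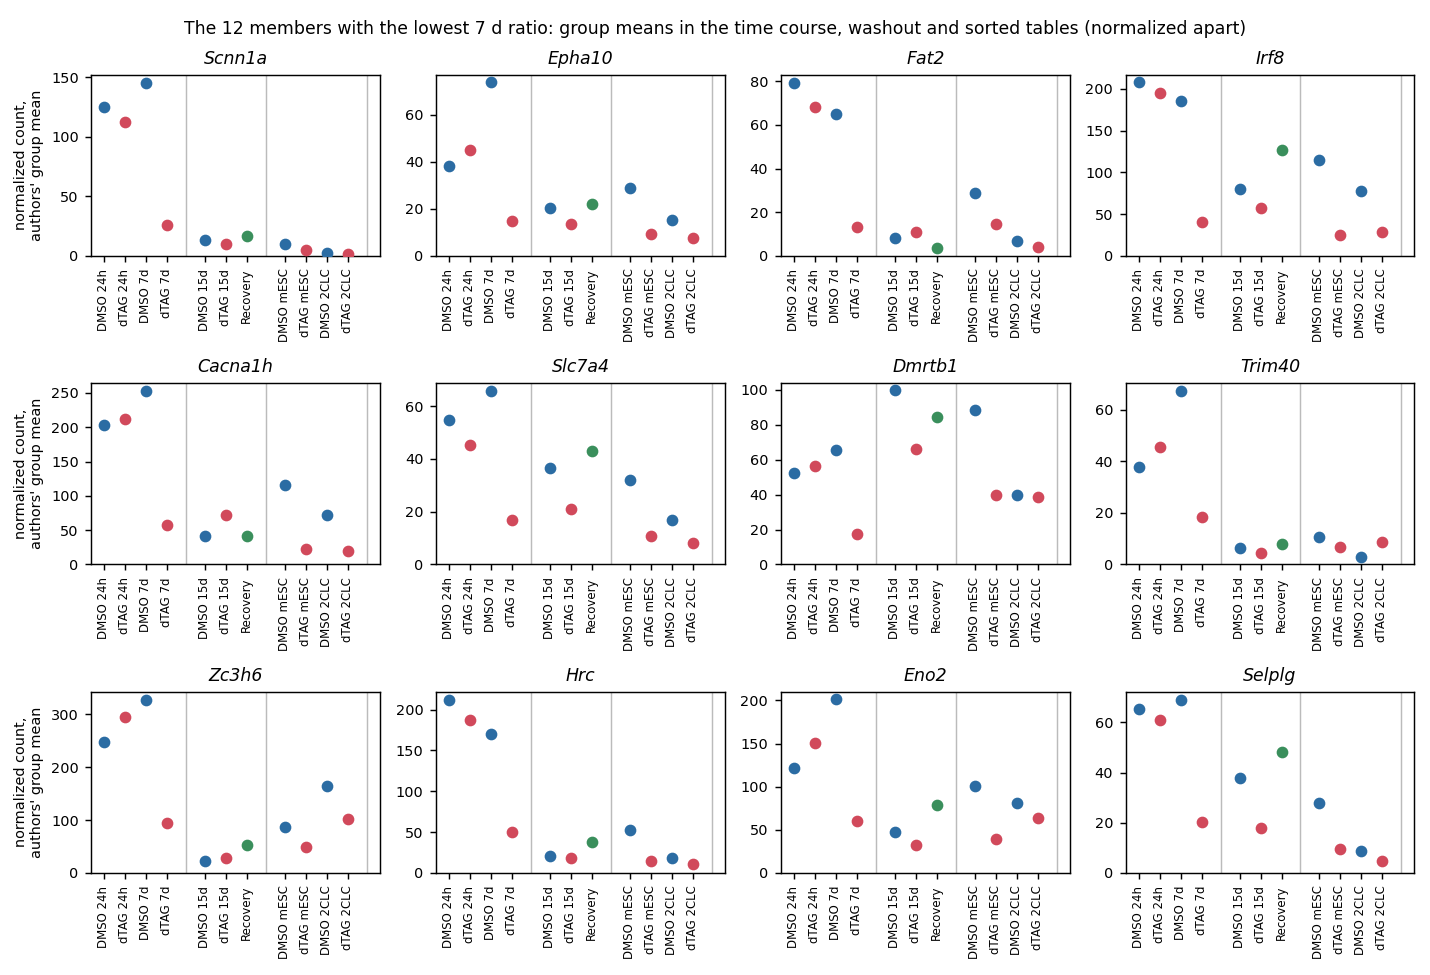
Group means in normalized counts (y axes from 0) of the 12 members with the lowest 7 d ratio, in the time course (left block of each panel), washout (middle) and sorted (right) tables, with DMSO in blue, dTAG in red and Recovery in green. The tables were normalized apart, so dots compare only within a block. The 7 d dTAG dot is the lowest of its block in every panel, and in the sorted block the dTAG mESC dot lies below the DMSO mESC dot in every panel, whereas in the washout block the dTAG dot of Cacna1h, Fat2 and Zc3h6 lies above that of DMSO.

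The members with the highest mean counts, which were not corrected for length, were led by Txnip (chromosome 3, 96557957 to 96561883), an inhibitor of thioredoxin and of glucose uptake. It had 12476.3 and 10026.5 at 24 h and 12027.6 and 3802.9 at 7 d, and with a 24 h ratio of 0.804 it was the member nearest to the lower edge of the 24 h window. Its 7 d ratio was 0.316. The calcium-dependent protease Capn5 went from 1614.6 to 703.3 at 7 d, the deubiquitinase Usp11 from 1495.7 to 720.3, and Gm2a, the activator of lysosomal ganglioside breakdown, from 961.5 to 462.7. Cln6, a membrane protein of the endoplasmic reticulum, had a 7 d ratio of 0.499, Serinc5, a membrane protein that limits retroviral infectivity, 0.494, and Ube2t, a ubiquitin-conjugating enzyme of DNA crosslink repair, 0.497. Meioc, which germ cells need to stay in meiosis, had 0.305, Nptxr, a receptor for neuronal pentraxins, 0.421, and Igdcc4, an immunoglobulin-domain membrane protein, 0.485.

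Near the edges the rule separated like values. Ube2t, Fgfr4 and Cln6 were the last inside the 7 d limit at 0.4967, 0.4974 and 0.4994, and Lyrm9, Nipal3 and Lpin1 the first outside it at 0.5002, 0.5006 and 0.5019. At the lower 24 h edge Txnip, C8g and Gm11944 were inside at 0.8037, 0.805 and 0.8081, and Arhgap8, Kcnh3 and Aspg outside at 0.799, 0.7978 and 0.7959. At the upper 24 h edge Eno2, Serinc5 and Zbtb7c were inside at 1.232, 1.241 and 1.246, and Coro2a, Bhlha15 and Trank1 outside at 1.259, 1.268 and 1.274. At the level limit Lrrc51, Klk1 and Aatk were inside with DMSO 7 d means of 50.57, 51.33 and 52.19, and Inha, Trim29 and Cyp27a1 outside with 49.72, 48.72 and 48.33.

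Of the 19 gene lists, 2 held a member, and each held 1. Cacna1h was the member among 13 expressed voltage-gated channel genes. Dnah8, a dynein heavy chain of motile cilia and sperm tails, was the member among 12 expressed cilium and axoneme genes, of which Dnah1 was also at 0.5 or less at 7 d. The lists for naive pluripotency (15 expressed genes, median 7 d ratio 1.02), formative and primed epiblast (11, 1.45), FGF-ERK targets (14, 1.69), NODAL-SMAD2/3 (12, 0.978) and WNT (9, 1.37) held 0 members. So did BMP-ID (8, 1.26), glutamate receptors and synapse (10, 0.76), trophoblast (7, 1.03), primitive endoderm (6, 0.94) and the germline list (7, 0.741). The lists for hypoxia and glycolysis (14, 0.773), cholesterol synthesis (13, 1.04), p53 targets (12, 0.802), ATF4 targets (13, 0.867) and the H3K9 methylation machinery (12, 1.03) also held 0 members, as did feeder fibroblast (11, 1.51) and 2-cell stage (5, 18.3). Over all lists 2 of 201 expressed genes were members (0.995%), close to the 0.895% of all 13741 genes with a DMSO 7 d mean of at least 50, so the count says nothing particular about the members. The lists were short, and a count of 0 does not show that genes of that kind were missing from the members. Eno2, an enolase, and Dmrtb1, Dmrt1, Meioc and Rec8, genes of germ cells or meiosis, were members that stood in no list.

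Members were 0.895% of genes with a DMSO 7 d mean of at least 50. By chromosome the share was highest on 6 (10 of 618, 1.62%) and 17 (10 of 685, 1.46%) and lowest on X (2 of 505, 0.396%) and 14 (2 of 501, 0.399%), and chromosome 7 had the largest number (14 of 1047). A few lay side by side. Hrc and Trpm4, a calcium-activated cation channel, were 1510 bases apart on chromosome 7 and had 7 d ratios of 0.299 and 0.371. Gm11944 and Pik3ip1, an inhibitor of PI3-kinase, were 9679 bases apart on chromosome 11 with 0.432 and 0.49. Scnn1a and Plekhg6 were 17717 bases apart on chromosome 6 with 0.185 and 0.36, and Dnah8 and Glp1r, the receptor of the hormone GLP-1, were 24452 bases apart on chromosome 17 with 0.343 and 0.384. In all, 14 of 123 members had another member within 100000 bases, these neighbours being picked after their values were seen. No such share was computed for other sets of genes. The count therefore does not show that members lay closer together than other expressed genes. In 15 members the gene body overlapped an opposite-strand gene with a DMSO 7 d mean of at least 50, a share not computed for other genes. Since the sources used here do not state that counting used strand, reads of such pairs may be shared.

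The members' transcripts were rich in G and C. The median GC content of the longest annotated transcript was 54.9% over the 123 members and 49.8% over 13610 other genes with a DMSO 7 d mean of at least 50, with median lengths of 3193 and 3007 bases and median DMSO 7 d means of 145.1 and 392.4. Of the 123 members, 57 (46.3%) lay in the 2 highest GC deciles. GC content also went with the ratios of all genes: from the lowest to the highest decile the median log2 ratio fell at 24 h from 0.16 to -0.15, at 7 d from 0.13 to -0.16, at 15 d from 0.13 to -0.05, in Recovery from 0.33 to -0.14 and in sorted mESC from 0.05 to -0.09. In sorted 2CLC it rose from -0.06 to 0.06. The part of GC content in the members' results was not tested.

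**Figure D2:**
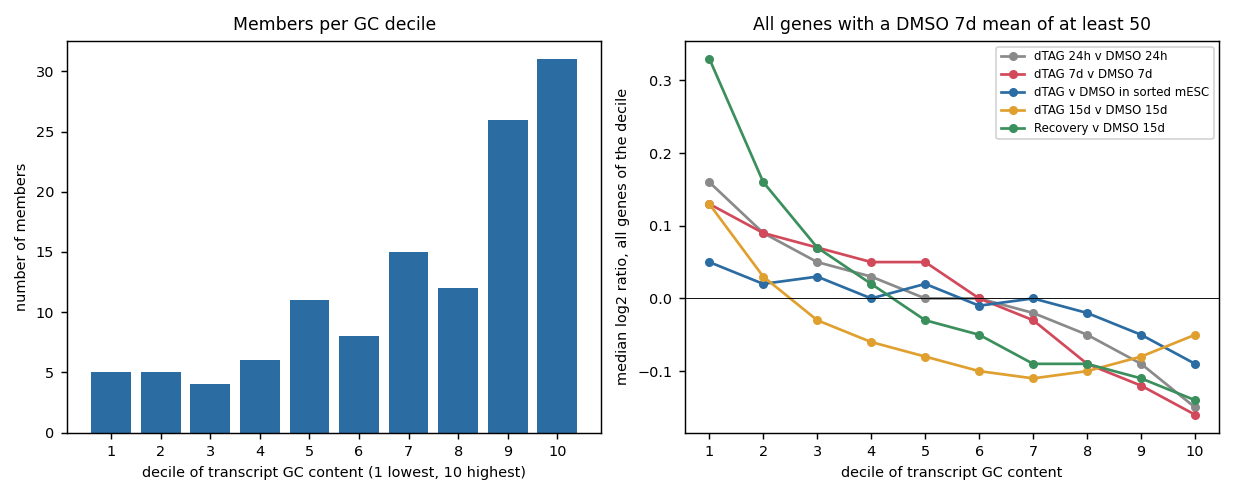
Left: the number of members (y axis from 0) in each decile of transcript GC content, over genes with a DMSO 7 d mean of at least 50, with 5 members in the lowest decile and 31 in the highest. Right: the median log2 ratio of all genes in each decile for 5 comparisons, which at 7 d declines from 0.13 to -0.16.

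The sorted cells asked whether the members were lower without EHMT2 in cells that did not express the MERVL-GFP reporter. In GFP-negative mESC after 72 h, 115 of 123 members (93.5%) had a lower mean in dTAG than in DMSO. The members' median ratio was 0.619 (log2 -0.69). Over 11696 genes with a DMSO mESC mean of at least 50, the median log2 ratio was -0.01 and 50.8% were lower in dTAG. At a limit of 0.5 of the control, 35 of 123 members were low. Among the 72 members with a DMSO mESC mean of at least 50 there were 17 such genes (23.6%), against 1.15% of all genes at that level. Among genes with DMSO mESC means of 50 to 300 the shares were 16 of 64 members and 1.78% of 6232 genes, and within the 2 highest GC deciles 8 of 32 members and 2.37% of 2281 genes. These are ratios of group means of 3 libraries, with no spread and no test. GFP-negative mESC in dTAG still had a summed mean of 15226 over the 15 2-cell genes against 1337 in DMSO, and 8858 against 6945 over the 16 feeder markers. The part of either in the members' ratios was not tested.

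Cacna1h had the lowest ratio in sorted mESC, with 116.5 in DMSO and 22.8 in dTAG (0.203). Fam83f, a member of a family of casein kinase binding proteins, had 14.2 and 2.22 (0.213), which rests on few counts. Irf8 had 115 and 24.8 (0.222), Rgs11, a regulator of G protein signalling, 41.7 and 9.77 (0.252), Hrc 52.4 and 14.3 (0.286) and the kinase Aatk 46.6 and 12.8 (0.289). Of these 6, Cacna1h, Irf8 and Hrc were also among the 12 lowest at 7 d. Txnip went from 6465.3 to 4477.4 (0.693), Meioc from 413.1 to 137 (0.333) and Gm2a from 387 to 194.1 (0.503).

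At the other end Klk1, a kallikrein protease, had 3.64 and 7.66 (1.87), again on few counts. Star, which carries cholesterol into mitochondria, had 116.7 and 141 (1.21), and Hmcn2, a hemicentin of the extracellular matrix, 111.8 and 123.4 (1.1). Ccdc18, with a coiled coil, had 55.9 and 57.1 (1.02), and Fam228b and the predicted gene Gm40989 had 1.06 and 1.07. These 6 had the highest ratios, and Star, Hmcn2 and Ccdc18 reached them with means above 50.

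In sorted 2CLC the members were also mostly lower in dTAG. The median ratio was 0.748, and 100 of 123 members (81.3%) were below 1, against 48.2% of genes with a DMSO 2CLC mean of at least 50. In both sorted populations 95 of 123 were below 1, a share not computed over all genes. At 0.5 of the reference or less stood 17 of 123 members, and among the 57 members with a DMSO 2CLC mean of at least 50 there were 5 (8.77%), against 0.787% of 12327 genes. The ratio was lower in mESC than in 2CLC for 89 of 123 members, and this difference was not tested. With the means rescaled to the same sum the members' median ratio was 0.633 in 2CLC and 0.622 in mESC, so the gap between the populations depended on the scaling. Irf8 had 77.2 and 28.6 in 2CLC (0.379), Cacna1h 72.7 and 19.3 (0.275), and Dmrtb1 39.8 and 38.8 (0.974) where sorted mESC had 88.5 and 39.7 (0.455).

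Without any degrader the members were mostly lower in 2CLC than in mESC. This comparison shares its DMSO mESC reference libraries with the dTAG ratios of sorted mESC. The median ratio of DMSO 2CLC to DMSO mESC was 0.62 (log2 -0.69), with 98 of 123 members (79.7%) below 1. Over all genes with a DMSO mESC mean of at least 50 the median log2 ratio was -0.14, and 60.2% were below 1. At 0.5 of the reference or less stood 42 of 123 members and 24 of the 72 at that level (33.3%), against 9.25% of all genes. In the highest GC decile all genes together had a median log2 ratio of -0.41 in this comparison, and within the 2 highest deciles the shares were 14 of 32 members and 16.4% of 2281 genes. The lowest ratios were those of Capn5 (897.3 in mESC, 188.2 in 2CLC, 0.211), the magnesium transporter family gene Slc41a3 (24.2 and 4.35, 0.212) and Rec8, the meiotic cohesin subunit (33.2 and 6.27, 0.213). Dnm1, the dynamin of nerve endings, had 160.2 and 35.9 (0.229), Chd5, a chromatin remodeller of neurons and testis, 94.2 and 22 (0.242), and Dnajc22, a DnaJ-domain protein, 77.7 and 18.4 (0.246).

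A minority went the other way between the 2 cell types. Ccdc18 had 55.9 in DMSO mESC and 226.2 in DMSO 2CLC (3.99), the cytochrome P450 gene Cyp2s1 157.1 and 413 (2.62), and H2-Q4, a class Ib histocompatibility gene, 34.4 and 89.5 (2.56), although reads of H2-Q4 may be shared with near copies. The transcribed pseudogene BC022960 had 23.5 and 57.3 (2.38), Fam228b 25.7 and 56.6 (2.15) and Lrrc51 13.9 and 30.9 (2.14).

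At 15 d of dTAG most members stood close to the control. The median ratio was 0.895 (log2 -0.16), and 75 of 123 members were below 1, while the median log2 ratio of 13383 genes with a DMSO 15 d mean of at least 50 was -0.05 and 57.4% of those genes were below 1. At 0.5 of the reference or less stood 8 of 123 members, and 5 of the 74 members with a DMSO 15 d mean of at least 50 (6.76%), against 0.486% of all genes. The share at 0.5 or less was therefore above the background, while the median and the share below 1 lay near it. Every member had met the limit at 7 d by the rule. Because the rule picked low 7 d ratios, ratios nearer to 1 in another experiment do not show that expression returned. The DMSO mean at 15 d was under 50 in 49 of 123 members, where the rule had required at least 50 at 7 d. The difference between 7 d and 15 d was not tested, since the 2 tables were normalized apart.

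The 8 members at 0.5 or less at 15 d were Dmrt1, Gnmt, Hapln4, Plekhb1, Dnajc22, Selplg, Gm3336 and Gm45752. Dmrt1 (chromosome 19, 25505618 to 25604329), a DM-domain transcription factor of the testis and of germ cells, had 588.1 in DMSO, 224.8 in dTAG and 652 in Recovery. Hapln4, a linker protein of the brain's extracellular matrix, had 285.1, 126.1 and 256.8. Plekhb1, with a pleckstrin domain, had 292, 131.6 and 308.7, and Dnajc22 had 150.8, 72 and 192. Gnmt, a methyltransferase that consumes S-adenosylmethionine, had 26.8, 10.4 and 30. In all 5 the dTAG mean was the lowest of the 3, and the ratio of Recovery to DMSO ran from 0.901 for Hapln4 to 1.27 for Dnajc22.

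Of these 8, Selplg, Hapln4, Dnajc22 and Gm3336 were also at 0.5 or less in sorted mESC. That makes 4 of 123 with both, a share not computed over all genes. Gm3336 had a DMSO mESC mean of 21.9, so its ratio there rests on few counts. Selplg had 38 in DMSO, 18 in dTAG and 48 in Recovery, and 27.8 and 9.45 in sorted DMSO and dTAG mESC. Hapln4 had 77.6 and 37.3 in sorted mESC, and Dnajc22 77.7 and 28.1.

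Other members were higher at 15 d of dTAG than in the control. A2m, the plasma protease inhibitor alpha-2-macroglobulin, had 23.1 in DMSO and 54.5 in dTAG (2.31), and Serinc5 had 216 and 446.6 (2.06), where the 7 d means were 617 and 304.3. Cacna1h had 41.9 and 72.6 (1.72), opposite to its 7 d and sorted values, and Igdcc4 had 581.2 and 1003.1 (1.72). Tfr2, the second transferrin receptor, had 10.6 and 18 (1.63) and Gm40989 5.74 and 9.92 (1.62), both on few counts. Txnip had 2421 in DMSO, 2860.4 in dTAG and 2906.1 in Recovery, so its mean was higher in dTAG than in DMSO at 15 d.

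After washout most members were above the control. The median ratio of Recovery to DMSO 15 d was 1.13, 91 of 123 members were above 1 and 32 below it, and 0 of 123 were at 0.5 or less, against 0.814% of all genes. The median log2 ratio was 0.17 for the members and -0.02 for genes with a DMSO 15 d mean of at least 50, of which 53.7% were below 1. The dTAG 15 d and Recovery ratios share the DMSO 15 d libraries. Side by side, 97 of 123 members had a higher mean in Recovery than at 15 d of dTAG, and 21.1% a lower one. Of 13671 genes with a dTAG 15 d mean of at least 50, 44.2% were lower in Recovery. Below DMSO at 15 d of dTAG and at or above it in Recovery were 53 members, a share not computed over all genes. The 16 feeder markers summed to 15038 in DMSO, 17610 in dTAG and 7564 in Recovery, with 1 of the 16 at 0 in Recovery, and the 15 2-cell genes to 842.7, 21586 and 1320. The part of either in the members' ratios was not tested.

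The highest Recovery ratios were those of the predicted gene Gm38372 (11.7 in DMSO, 40.9 in Recovery, 3.31), A2m (65.2 in Recovery, 2.75), Zc3h6 (22.6 and 53.8, 2.32), Gm40989 (2.22), Meioc (223 and 459.1, 2.05) and Cyp2s1 (45.6 and 93.1, 2.02). Meioc had a mean of 191.5 at 15 d of dTAG, below both its DMSO and its Recovery mean. The lowest were Fat2 (8.14 and 3.59, 0.502), Zbtb7c, a BTB zinc finger gene (79.2 and 43.2, 0.551), Ephx1, the microsomal epoxide hydrolase (153.6 and 89.6, 0.586), Klk1 (0.625), Hmcn2 (23.7 and 14.6, 0.633) and the kinase Wnk2 (72.6 and 50.7, 0.703). In these 6 the Recovery mean was below the control, while at 15 d of dTAG Fat2, Zbtb7c, Klk1 and Wnk2 had been above it, with ratios of 1.32, 1.24, 1.46 and 1.14.

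**Figure D3:**
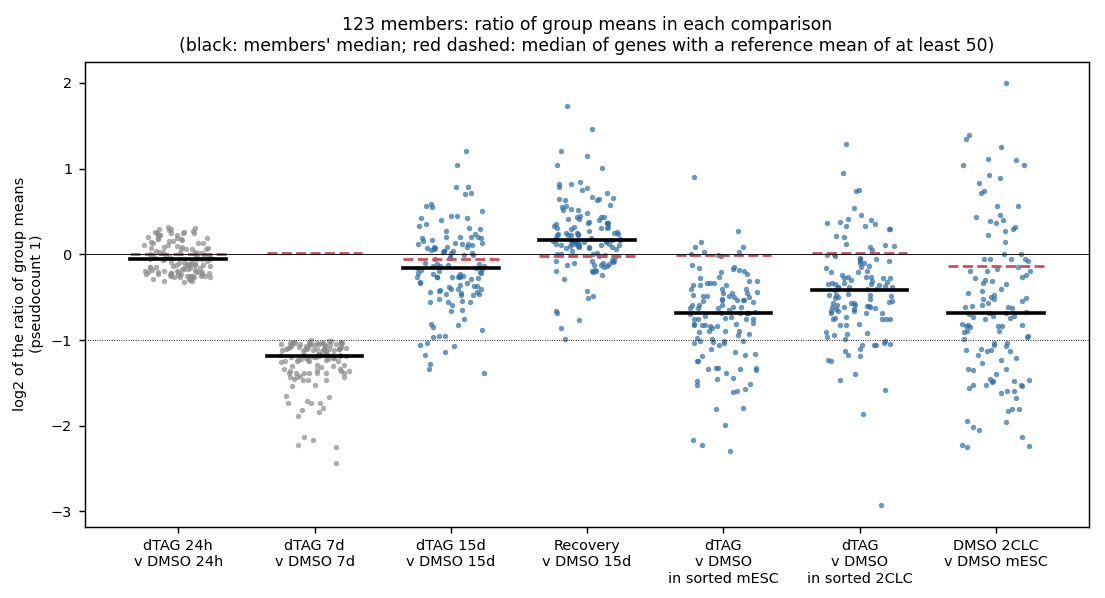
The log2 ratio of group means (y axis) of each of the 123 members in 7 comparisons, grey for the 2 that chose the members, with the members' median as a black line and the median of all genes with a reference mean of at least 50 as a red dashed line. The members' median lies at -0.69 in sorted mESC, -0.42 in sorted 2CLC, -0.16 at 15 d and 0.17 in Recovery, and the dotted line marks 0.5 of the reference.

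The Dppa4 experiment, whose 12 libraries had 8399885 to 12710949 gene reads, allowed tests. Of the 123 members 118 passed the filter on low counts, and 17258 genes were tested. Calls needed an adjusted p under 0.05 in limma with Benjamini-Hochberg adjustment and at least a 2-fold change.

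UNC0638 for 48 h changed 0 of 118 members in WT cells by limma, against 0 of 17258 genes (0%). By edgeR and DESeq2 on the recovered reads 0 members were called too, and 11 of 118 had an unadjusted limma p under 0.05. For these counts the shares over all genes were not computed. The median log2 fold change was -0.27 for the members and 0 for all genes tested, and 82 of 118 members (69.5%) were below 0 against 50.2% of genes. The member nearest to a call was Dnajc22, with 158.2, 159.9 and 159.1 normalized counts in WT DMSO and 105.7, 58.9 and 66.3 in WT UNC0638. All 3 treated libraries were lower than all 3 controls, the log2 fold change was -1.09 (SE 0.26), and it was not called by limma (adjusted p = 0.562). Pde4a, a cyclic AMP phosphodiesterase, which was singled out after its values were seen, had 175.7, 167.3 and 181.8 in DMSO and 59.9, 117.7 and 101.4 in UNC0638, with a log2 fold change of -0.96 (SE 0.27, limma adjusted p = 0.563).

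Irf8 had 84.9, 25.8 and 30.6 in WT DMSO and 29.1, 23.4 and 31.9 in WT UNC0638, so the groups overlapped and 1 control library stood high. Cacna1h had 71, 12.3 and 46.3 against 38.7, 37.4 and 34.3, again overlapping. Trim40 had 26.8, 14.8 and 14.9 against 2.64, 6.54 and 9.58, every treated library below every control, with a log2 fold change of -1.53 (SE 0.82) on few counts that was not called (limma adjusted p = 0.573). Txnip had 4681.9, 3629.8 and 6075.2 against 3413.7, 3098.2 and 4590.8, a log2 fold change of -0.36 (SE 0.21) with overlapping groups. Dmrt1 had 162.9, 391.1 and 577.8 in DMSO and 168.2, 300.9 and 505.4 in UNC0638, and the spread between replicate numbers was larger than any shift with treatment.

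In KO cells UNC0638 lowered 2 of 118 members, against 9 of 17258 genes that fell (0.0521%), and raised 0, against 71 genes that rose (0.411%). In either direction 80 genes were called (0.464%). The median log2 fold change of the members was -0.32, and 87 of 118 (73.7%) were below 0 against 50% of genes. Nptxr (chromosome 15, 79786351 to 79804766) had 437.4, 412.7 and 330.8 in KO DMSO and 250.2, 152.7 and 117.9 in KO UNC0638, a log2 fold change of -1.24 (SE 0.26, limma adjusted p = 0.0448). The processed pseudogene Gm5540, whose reads may be shared with its parent gene, had 262.2, 375 and 232.1 against 144.4, 91.4 and 93.4, a log2 fold change of -1.4 (SE 0.28, limma adjusted p = 0.0385). In both genes the groups did not overlap. Libraries of the KO UNC0638 group stood apart from each other: replicate 2 lay at -85.1 on the second principal component against -13.6 and -20.8, and pairs with replicate 3 had chi-square values per gene of 51.8 and 38, against 11.7 to 25.2 within the other groups. The count fell to 0 without KO DMSO replicate 1 or 2, without KO UNC0638 replicate 2 or 3 and without any 1 of the WT UNC0638 libraries, fell to 1 without KO DMSO replicate 3 or WT DMSO replicate 1 or 2, and rose to 7 without KO UNC0638 replicate 1.

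Pde4a and Acot1, an acyl-CoA thioesterase, came close in KO cells, and both were picked after their values were seen. Pde4a had 257.3, 248.6 and 189.2 in KO DMSO and 129.7, 91.4 and 101.3 in KO UNC0638 (log2 fold change -1.1, SE 0.27, limma adjusted p = 0.0668). Acot1 had 914.9, 707.1 and 443.4 against 370.7, 230.1 and 207.8 (log2 fold change -1.34, SE 0.33, limma adjusted p = 0.068). Gm2a had 1341.5, 1393.9 and 980.8 against 977.7, 636.4 and 894.9 (log2 fold change -0.57, SE 0.19, limma adjusted p = 0.17).

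In WT the 15 2-cell genes summed to 1309 to 10154 in the UNC0638 libraries, and in KO to 0 to 4.37, and their part in the members' values was not tested. A test of whether UNC0638 acted unequally in KO and WT called 0 of 118 members by limma, against 0 of 17258 genes (0%), and 0 by edgeR and by DESeq2, and 9 members had an unadjusted limma p under 0.05. For the edgeR, DESeq2 and unadjusted counts the shares over all genes were not computed. For Nptxr the difference between the effects in KO and WT was -1.1 on the log2 scale (SE 0.37, limma adjusted p = 0.775). A call in KO and none in WT therefore does not show that the effects differed.

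Between KO and WT cells without inhibitor, members differed in both directions. In DMSO, 19 of 118 members (16.1%) differed between KO and WT, against 765 of 17258 genes (4.43%). Lower in KO were 9 members (7.63%), against 3.1% of genes, and higher were 10 (8.47%), against 1.33% of genes. The members' median log2 fold change was 0.26 and that of all genes -0.03. The KO and WT DMSO libraries compared here were also the controls for UNC0638 in KO and in WT. There the members' medians were -0.32 and -0.27. The part of the shared libraries in these medians was not tested. The members were chosen for a low level after EHMT2 loss and not for Dppa4, so this contrast did not enter the rule.

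**Figure D4:**
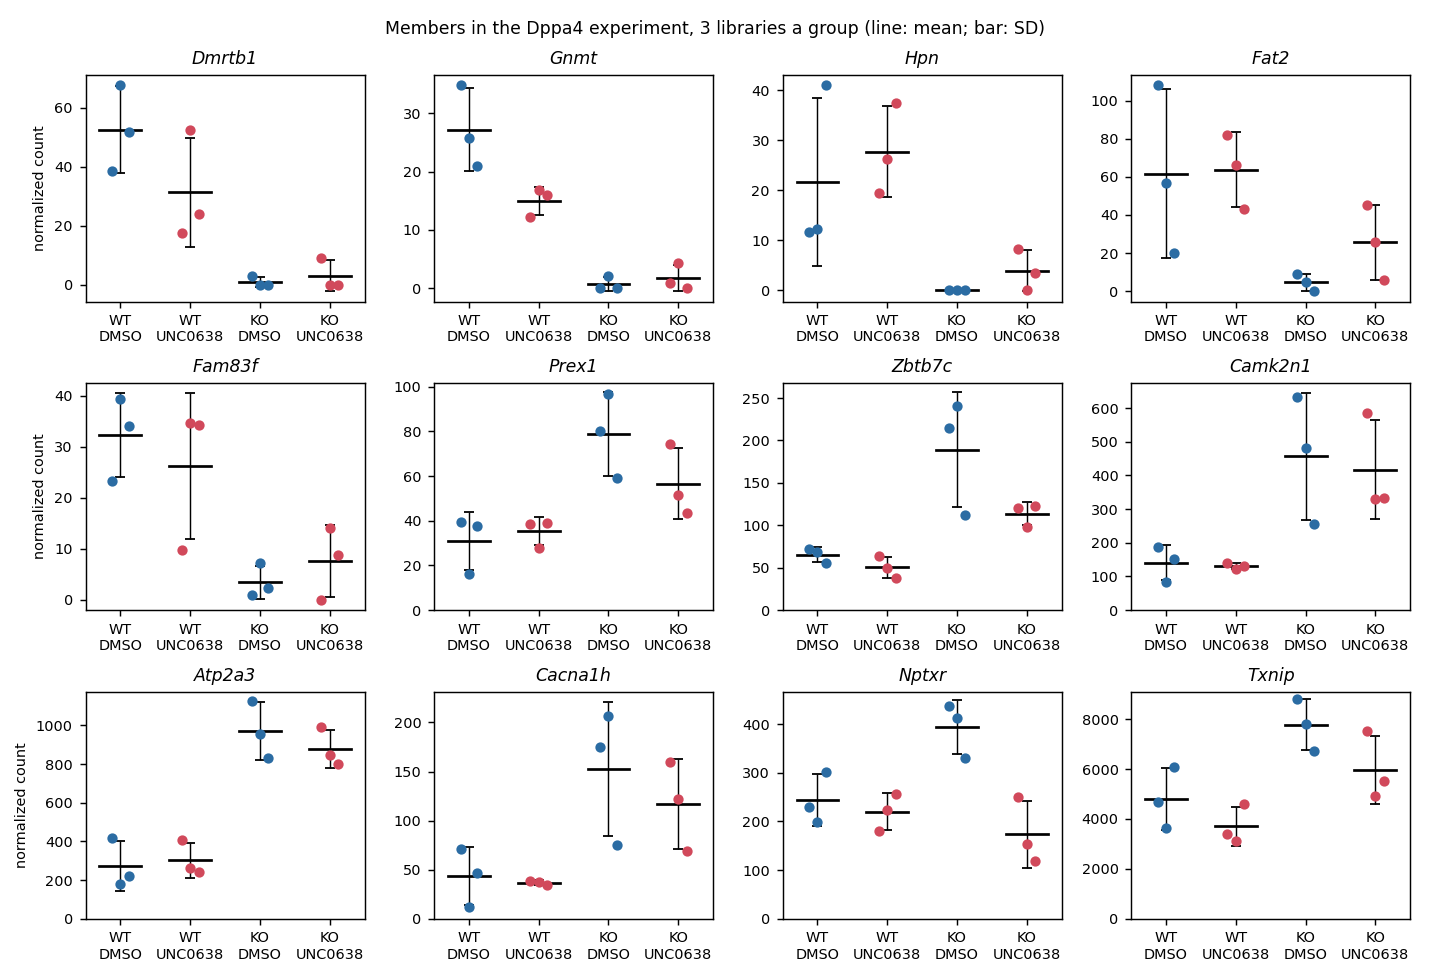
Normalized counts in each library (dots, 3 a group, blue DMSO, red UNC0638) with mean (line) and SD (bar) for 12 members of the Dppa4 experiment. Dmrtb1, Gnmt, Hpn, Fat2 and Fam83f lie near 0 in KO DMSO, while Atp2a3, Cacna1h, Camk2n1, Zbtb7c and Prex1 lie higher in KO than in WT, and Txnip overlaps between DMSO and UNC0638.

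Among the members lower in KO, Dmrtb1 (chromosome 4, 107676290 to 107684230) had 38.4, 67.7 and 51.6 in WT DMSO and 2.94, 0 and 0 in KO DMSO. Pooled over the group this was 147 reads in WT and 3 in KO, a level 49-fold lower in KO (95% exact interval 16.4 to 240, counting error only, limma adjusted p = 0.00425). Gnmt had 34.9, 25.8 and 21 against 0, 2.04 and 0, or 75 reads and 2 reads, 37.5-fold lower (10 to 315, limma adjusted p = 0.00636). Hpn, the membrane serine protease hepsin, had 11.6, 12.3 and 41.1 against 0 in all 3 KO libraries, at least 22.3-fold lower when the KO group is set to 3 reads in all (limma adjusted p = 0.0087). Of its 67 WT DMSO reads 47 came from replicate 3, and without that library the bound was 11.5-fold and the call was lost (limma adjusted p = 0.0522). In all 3 the transcript was near or at 0 in KO.

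Fat2 had 108.2, 56.6 and 20.1 in WT DMSO and 8.81, 5.09 and 0 in KO DMSO (log2 fold change -3.71, SE 0.83, limma adjusted p = 0.0157), and the groups did not overlap, although the WT libraries were spread and the call was lost without WT DMSO replicate 2 (limma adjusted p = 0.0701). Evpl, the envoplakin of the epidermal envelope, had 129.1, 147.6 and 155.6 against 16.6, 32.6 and 37.1 (-2.36, SE 0.52, limma adjusted p = 0.0149), and was no longer called without WT DMSO replicate 2 or 3 or KO DMSO replicate 1 (limma adjusted p = 0.0651, 0.0532 and 0.076). Atp8b3, a phospholipid flippase of sperm, had 105.9, 70.1 and 97 against 18.6, 14.3 and 12.8 (-2.5, SE 0.44, limma adjusted p = 0.00394). Cbr3, a carbonyl reductase, had 407.2, 1071.3 and 2014.9 against 126.2, 121.2 and 193.8 (-2.73, SE 0.53, limma adjusted p = 0.00731). Its WT UNC0638 libraries had 333.7, 829.7 and 1750.9, so the WT replicates with the same number stood alike under both treatments. Fam83f and the transcribed pseudogene Gm45752 were also lower.

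Among the members higher in KO, Atp2a3 (chromosome 11, 72961169 to 72993044), a calcium pump of the endoplasmic reticulum, had 418.9, 178.4 and 219.4 in WT DMSO and 1126.2, 955.7 and 832.3 in KO DMSO (log2 fold change 1.92, SE 0.27, limma adjusted p = 0.000972). Cacna1h had 71, 12.3 and 46.3 against 175.1, 206.8 and 75.4 (1.98, SE 0.52, limma adjusted p = 0.0335). Without WT DMSO replicate 2 its log2 fold change was 1.27 and the call was lost (limma adjusted p = 0.146), as it was without WT DMSO replicate 3 or KO DMSO replicate 1 or 2. Camk2n1, an inhibitor of the calcium-dependent kinase CaMKII, had 187.3, 84.9 and 152.1 against 632.1, 483 and 256.5 (1.66, SE 0.34, limma adjusted p = 0.0087), and lost its call without WT DMSO replicate 2 or KO DMSO replicate 1, with limma adjusted p = 0.0587 and 0.0545. These 3 genes of calcium handling were grouped after their values were seen, and the grouping was not tested. In each, every KO DMSO library stood above every WT DMSO library, which genes already called higher were likely to show. The share of genes without overlap was not computed over all genes.

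Gm2a had 575.9, 456.3 and 583 in WT DMSO and 1341.5, 1393.9 and 980.8 in KO DMSO (1.19, SE 0.19, limma adjusted p = 0.0025). Dnah8 had 75.6, 78.7 and 79.5 against 160.5, 193.6 and 197.3 (1.22, SE 0.23, limma adjusted p = 0.00568), and Capn5 had 471.2, 372.7 and 380.2 against 1001.9, 925.2 and 625.6 (1.04, SE 0.24, limma adjusted p = 0.0165). Capn5 lost its call without WT DMSO replicate 2 or 3 or KO DMSO replicate 1 or 2, where its log2 fold change was 0.91 to 0.99. Zbtb7c (1.45), Gm5540 (1.52), the Rac activator Prex1 (1.39) and Chd5 (1.24) were the other members called higher. Gm5540 was also called lower under UNC0638 in KO, and both of its calls rest on the same KO DMSO libraries. The count of 19 went to 10 without WT DMSO replicate 2, to 11 without KO DMSO replicate 1 and to 12 without WT DMSO replicate 3 or without KO DMSO replicate 2. The 16 feeder markers summed to 10268 to 13269 in the WT DMSO libraries and 6212 to 7606 in the KO DMSO libraries, and the 15 2-cell genes to 157.1 to 2586.5 in WT DMSO and 0 in KO DMSO. The part of either in the members' differences was not tested.

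Set beside each other, the 19 members called for Dppa4 were all below 1 in sorted mESC, whichever way they were called. So were 115 of all 123 members. The dTAG to DMSO ratios of the 19 there ran from 0.203 for Cacna1h, higher in KO, to 0.832 for Atp8b3, lower in KO. At 15 d, of the members lower in KO, Fat2 alone stood above 1 (1.32), and the lowest was Gm45752 (0.396). Of those higher in KO, Cacna1h (1.72), Camk2n1 (1.36), Zbtb7c (1.24) and Prex1 (1.14) were above 1 at 15 d. The others higher in KO were below 1, down to 0.516 for Dnah8.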

How the data were processed

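RNA-seq was made from mESCs on feeders and from J1 mESCs. Reads were trimmed (Trim Galore 0.6.7) and aligned to mm10 (STAR 2.7.10), and multi-mapping reads were placed at 1 random position, according to the study's methods and processing notes. The authors deposited a signal value per gene, the TEcounts read count on GENCODE vM25 divided by DESeq2 (1.34.0) size factors over genes and repeats. In 3 of the 4 tables the columns used were the authors' group means of 3 libraries, which carry no spread here. Columns with the authors' own fold changes and p-values were not used. For these tables the ratio was taken with 1 added to both means, within a table.

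The Dppa4 table held 12 libraries, in which 100% of values were whole reads within a relative tolerance of 0.001. log2(normalized count + 1) was fitted with limma 3.58.1 (limma-trend, all 4 groups) after a filter on the recovered reads (filterByExpr, edgeR 4.0.16), with Benjamini-Hochberg adjustment over 17258 genes, and fold changes on that scale understate the change of low genes. Intervals cover counting error only. edgeR and DESeq2 1.42.0 on the recovered reads, other scalings, pseudocounts, filters, rule limits and fits without 1 library were alternatives, and the further backgrounds by level and GC content were added after the data were seen. Scripts were tested on simulated data.

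The members and gene lists were chosen with earlier results of these data known. Members were named by a rule: the 12 lowest 7 d ratios, the 10 highest coding DMSO 7 d means, up to 8 called members per Dppa4 contrast by size of change, the 6 lowest and 6 highest ratios in 4 comparisons, members of a list, and the 3 nearest genes to each limit. Other names were chosen after their values were seen, namely Pde4a and Acot1, the close neighbours, the remaining calls and the genes set side by side. Coordinates and GC content come from GENCODE M21 on GRCm38.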

Additional observations from a re-analysis of the deposited data

How the results depend on the processing

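Of the 123 members, the number at 0.5 of the reference or less was 8 at 15 d, 0 in Recovery, 35 in sorted mESC, 17 in sorted 2CLC and 42 in DMSO 2CLC against mESC. With a pseudocount of 10 it was 4 at 15 d, 14 in mESC, 4 in 2CLC and 27 between the cell types. At a limit of 1.5-fold it was 19, 5, 75, 48 and 69 in that order. With means rescaled to the same sum it was 1 in Recovery and 27 in 2CLC, where this scaling moved the log2 ratio by -0.24 and the members' median ratio from 0.748 to 0.633. Under a rule with a DMSO 7 d mean of at least 100 (78 members) it was 5 at 15 d, 19 in mESC and 11 in 2CLC. Under a 24 h ratio from 0.9 to 1.1 (55 members) it was 4, 17 in mESC and 19 between the cell types, and under a 7 d ratio of at most 0.4 (38 members) it was 3 at 15 d, 16 in mESC, 9 in 2CLC and 17 between the cell types, these rules holding fewer members.

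For UNC0638 in KO cells, where limma called 2 members, edgeR called 1, DESeq2 4, the fit without a filter 0, an adjusted p under 0.01 0 and protein-coding members alone 1, and leaving out 1 library gave 0 to 7. For KO against WT in DMSO, with 19 members called, an adjusted p under 0.01 left 10, and leaving out 1 library gave 10 to 22. The counts for UNC0638 in WT and for the difference of effects were 0 under every alternative run. For the alternatives in the Dppa4 experiment the shares over all genes were not computed. Among the 19 members, Atp2a3, Atp8b3, Cbr3, Dmrtb1, Dnah8, Gm2a, Gm5540 and Gnmt were called under all 20 alternatives, while Fam83f lost its call in 13, Prex1 in 10, Gm45752 in 8 and Cacna1h in 6. In KO cells Nptxr lost its call in 13 and Gm5540 in 9. The uncalled log2 fold change of Nptxr in WT, -0.14, ran from -0.27 to 0.03 when 1 library was left out, and was 0.03 without WT DMSO replicate 3. Apart from fits with fewer samples or stricter limits, the cause was not tested.

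Replicate numbers were not taken to pair the Dppa4 libraries, since the labels tie no number to a clone and deviations of same-numbered libraries from their group means correlated from -0.09 to 0.43. Between DMSO and UNC0638 the correlations were 0.25, 0.1 and 0.43 in WT, which leaves a pairing of WT libraries possible, and 0.15, -0.09 and 0.01 in KO. With the replicate block, 0 members were called for UNC0638 in WT, 5 for UNC0638 in KO and 23 for KO against WT, shares not computed over all genes. Group means of 3 tables give no replicate error, and 49 of 123 members had a DMSO 15 d mean under 50 and 51 of 123 a DMSO mESC mean under 50, where few reads lie behind a ratio.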
